A study of Mus musculus with 8 samples.

Results

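The Gnas locus was described by its open chromatin in NIH3T3, an immortalised line of mouse embryonic fibroblasts, grown for 24 h on G128 or on G2. Its members were the ATAC-seq peaks that overlapped chromosome 2 from 174090000 to 174190000 on the mouse genome build mm9, a span of 100 kb. These were 26 of the 154178 peaks in 4 lists, and they merged into 6 of 45915 regions. The locus was chosen because its last region, 2:174169462–174169980, stood higher on G2 in these same data, so that difference is given as a description with no test.

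The series concerns hydrogels of polyvinyl alcohol and gelatin and how cells adhere to them. What G128 and G2 are is not stated in the labels, nor whether replicates came from separate cultures. Each group held 2 ATAC-seq libraries, all of unmodified NIH3T3 cells as far as the labels say, with 1 peak list for each library. ATAC-seq marks open chromatin as the places where a transposase can insert adapters. RNA was also sequenced, in 4 libraries not analysed here, and the fibroblast identity of the cells was not checked against markers.

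Gnas encodes the alpha subunit of the stimulatory G protein, Gs alpha, which passes the signal of hormone receptors to adenylyl cyclase and so raises cyclic AMP. The locus is imprinted and has alternative promoters whose first exons splice onto shared downstream exons. The Nesp promoter gives the secretory protein NESP55 from the maternal allele, the Gnasxl promoter gives the long variant XL alpha s from the paternal allele, and exon 1A gives a non-coding transcript from the paternal allele. Nespas is an antisense transcript of the paternal allele, and Gs alpha itself is made from both alleles in most tissues. Peak lists do not tell the parental alleles apart.

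RefSeq lists 4 starts for Gnas, in the build GRCm38.p6, and their 300-base windows are shown for what the DNA at these alternative promoters looks like. Each window runs from 250 bases before a start to 50 after it, on the plus strand, with every CG in capitals. CG is the dinucleotide at which imprinted promoters carry DNA methylation. The windows of the second and the third start lie 19 bp apart, so only the second is printed.
First start, chr2:174284070-174284369: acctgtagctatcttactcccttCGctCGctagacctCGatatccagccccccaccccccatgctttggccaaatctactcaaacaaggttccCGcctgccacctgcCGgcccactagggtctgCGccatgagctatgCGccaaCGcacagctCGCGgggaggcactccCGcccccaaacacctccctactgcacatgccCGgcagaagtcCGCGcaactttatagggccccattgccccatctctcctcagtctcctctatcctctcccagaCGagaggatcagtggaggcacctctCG
Second start, chr2:174327499-174327798: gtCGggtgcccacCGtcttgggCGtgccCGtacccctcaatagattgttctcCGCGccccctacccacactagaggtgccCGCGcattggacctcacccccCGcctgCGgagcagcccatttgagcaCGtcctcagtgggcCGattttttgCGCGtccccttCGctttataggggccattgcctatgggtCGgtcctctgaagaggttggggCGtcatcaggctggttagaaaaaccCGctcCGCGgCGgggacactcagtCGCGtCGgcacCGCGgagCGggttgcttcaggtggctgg
Last start, chr2:174329756-174330055: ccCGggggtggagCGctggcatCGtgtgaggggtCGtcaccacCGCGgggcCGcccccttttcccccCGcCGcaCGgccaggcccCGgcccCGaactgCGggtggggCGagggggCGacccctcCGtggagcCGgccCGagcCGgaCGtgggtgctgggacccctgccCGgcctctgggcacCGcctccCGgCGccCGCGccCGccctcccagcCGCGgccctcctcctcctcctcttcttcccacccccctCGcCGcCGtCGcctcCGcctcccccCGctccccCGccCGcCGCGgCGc

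The 3 windows held 16, 27 and 40 CG dinucleotides in this order, against a median of 7 over the 32851 promoter windows of the same length in the table. At least as many were present in 33.0%, 15.5% and 3.91% of all windows. The GC content was 61.0%, 64.3% and 81.7%, against a median of 52.7%. The letters TATAAA, searched on both strands, occurred once each in the first and the second window and not in the last, and in 13.6% of all windows. The letters GGGCGG, searched on both strands, occurred at 1, 0 and 3 places, and in 35.7% of all windows. Searched this way, no place of TATAAA can overlap a place of GGGCGG. These windows are on another build than the peaks, whose positions cannot be set beside them, so no peak is assigned to a promoter and the name of the locus was taken as given. On GRCm38.p6 the neighbours of Gnas and its antisense gene Gnasas1 (Nespas) are the microRNA genes Mir298 and Mir296 on one side and Gm30189 and Nelfcd on the other.

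The 6 regions are called region 1 to region 6 in the order of their positions. A summit is the highest number of overlapping intervals in a peak, recovered from its deposited p-value, and it is given over the background mean of its own library. That background mean, which stands for depth, was 1.05 and 1.41 intervals per bp for replicates 1 and 2 on G128, and 1.10 and 1.37 for those on G2. The lists held 32540, 37695, 42358 and 41585 peaks in that order. The median summit over all 27768 regions with a peak in all 4 libraries was 50.3 and 58.1 times the background on G128, and 67.3 and 68.7 times on G2. This general difference was 0.33 on the log2 scale. Where a value is called centred, the library's own median over those regions was subtracted on the log2 scale.

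The open regions were spread unevenly over the locus. Region 1 was at 174105383 to 174105565, region 2 at 174120618 to 174121389, region 3 at 174152610 to 174153568, region 4 at 174154650 to 174155810, region 5 at 174155925 to 174156701, and region 6 at 174169462 to 174169980. Regions 3, 4 and 5 lay close together, with gaps of 1081 and 114 bp. Gaps of 15.1 and 31.2 kb separated regions 1, 2 and 3, and 12.8 kb separated region 5 from region 6. On chromosome 2, the 912 windows of 100 kb with at least 1 region held a median of 3, and 23.2% of them held 6 or more.

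**Figure D1:**
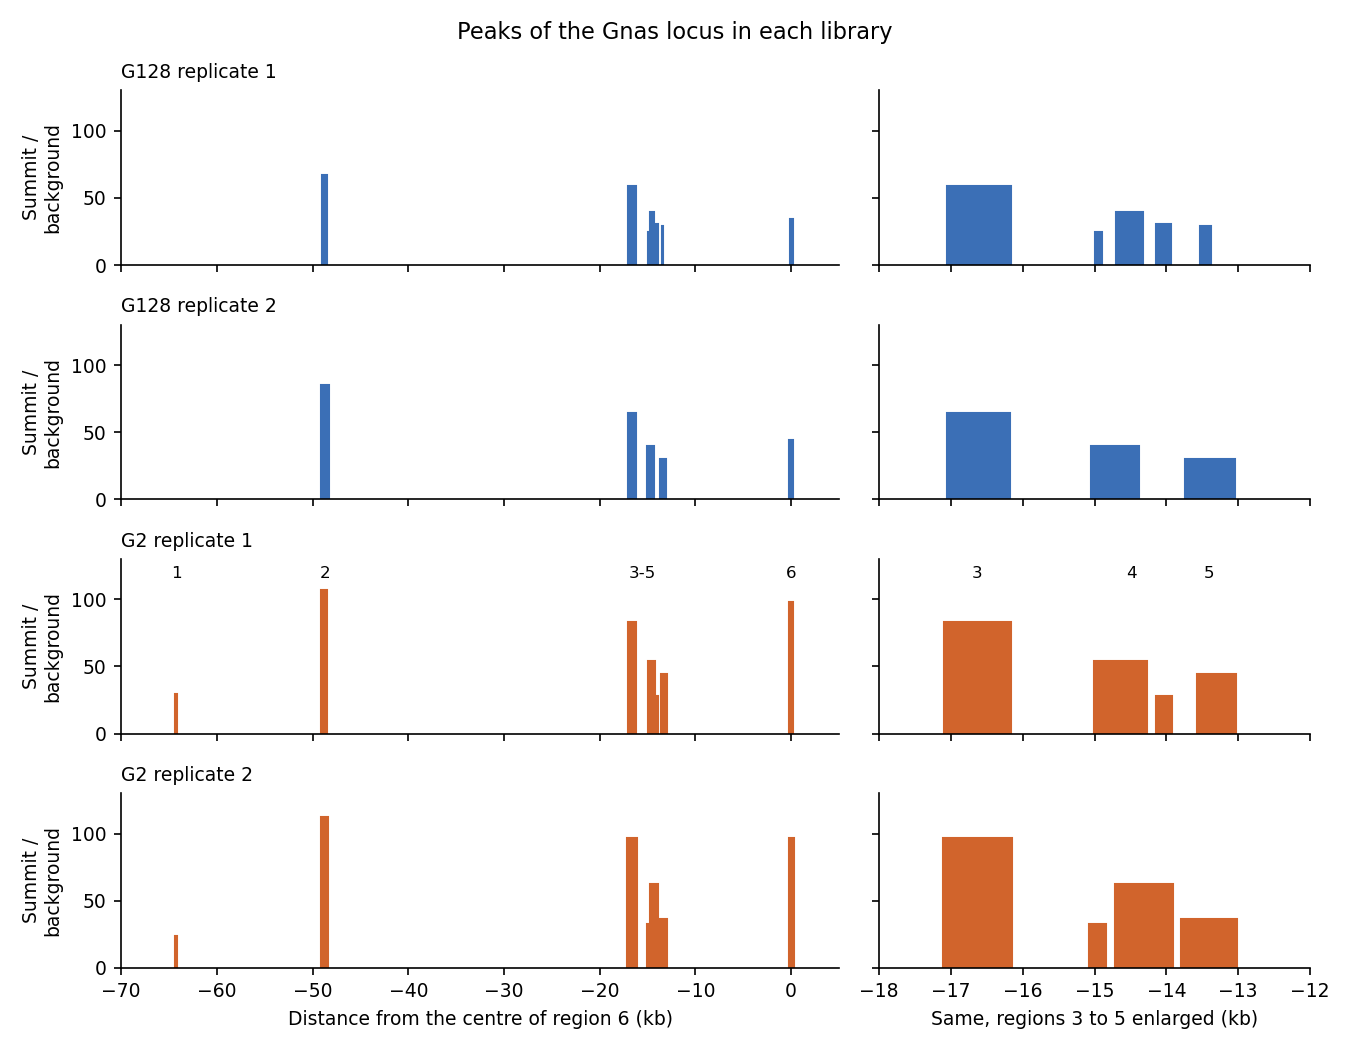
Peaks of the locus in each library: the x axis is the distance in kb from the centre of region 6, with regions 3 to 5 enlarged at the right, and each bar spans a peak, with its summit over the background mean as its height. Region 6 at 0 kb reaches 34.1 and 43.9 on G128 and 98.2 and 96.4 on G2, and region 1 at the left is in the G2 lists only.

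Region 6 stood higher on G2 than on G128. On G128 its summit stood at 34.1 times the background in replicate 1 and at 43.9 times in replicate 2. On G2 it stood at 98.2 times in replicate 1 and at 96.4 times in replicate 2. The 2 values on G2 were both above the 2 on G128, so the groups did not overlap. The means were 39.0 ± 6.92 on G128 and 97.3 ± 1.27 on G2 (SD, n = 2 each), a ratio of 2.49. Because region 6 was chosen for standing higher on G2, nothing is read from this separation. Before centring, the log2 difference of G2 minus G128 was above 0 in 90.0% of the regions with a peak in all 4 libraries. After centring, 23.8% of them still showed such a separation with G2 higher.

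Counted as overlapping intervals, the summit of region 6 was 36 (exact Poisson 95% interval 25.2 to 49.8) and 62 (47.5 to 79.5) on G128. It was 108 (88.6 to 130) and 132 (110 to 157) on G2. These ranges cover counting error only and are no test of the difference for which the region was chosen, and overlapping intervals from PCR duplicates would not be independent.

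After centring, region 6 moved from below the median shared region to above it. Its centred log2 summit was −0.56 and −0.40 on G128, against 0.55 and 0.49 on G2. The difference was 1.00 on the log2 scale, between means of −0.48 ± 0.11 and 0.52 ± 0.04 (SD, n = 2 each). Between the same-numbered libraries it was 1.10 and 0.89. Of the 27768 regions with a peak in all 4 libraries, region 6 had the difference in seventh place from the top, which is 0.0252% of them. Choosing the region for this difference fixed that place, and nothing is read from it.

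In the deposited columns region 6 stood higher in the G2 lists. Region 6 was chosen on these values, −log10 p and rank, so they are a description and nothing is read from them. Its deposited −log10 p, from which the summit was recovered, was 4.89 and 5.42 in the G128 lists and 7.31 and 7.26 in the G2 lists. By this value it ranked 20417 of 32540 peaks in G128 replicate 1 and 18113 of 37695 in G128 replicate 2, or at 62.7% and 48.1% of the list from its strongest peak. It ranked 9679 of 42358 in G2 replicate 1 and 10125 of 41585 in G2 replicate 2, or at 22.9% and 24.3%. Region 6 was thus in the middle of the G128 lists and higher up in the G2 lists. The lists differ in length, and with the strongest 32540 peaks of each the ranks were at 62.7%, 55.7%, 29.7% and 31.1%.

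The peak at region 6 was wider and its deposited signal larger on G2. Width and signal belong to the same peaks for which region 6 was chosen, so nothing is read from them. It was 349 and 423 bp wide in the G128 lists and 461 and 519 bp in the G2 lists. The signal, which is the value the peak caller gave the whole peak, was 153 and 302 on G128 and 809 and 857 on G2. The summit lay at 174169674, 174169677 and 174169668 in G128 replicate 2 and G2 replicates 1 and 2, within 9 bp. In G128 replicate 1, the library with the weakest peak here, it lay at 174169882, so the height of that library was read up to 214 bp away from that of the others.

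Region 2 was the highest region of the locus in every library. It reached 67.3 and 85.0 times the background on G128, and 107 and 112 times on G2. The means were 76.2 ± 12.5 and 110 ± 3.15 (SD, n = 2 each), a ratio of 1.44. Its −log10 p of 6.39, 6.95, 7.53 and 7.64 placed it at 32.0% and 25.1% of the G128 lists and at 20.8% and 20.9% of the G2 lists. Its summits lay within 9 bp of each other in the 4 libraries.

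Region 3 was the widest single peak of the locus, at 883, 875, 929 and 959 bp in G128 replicates 1 and 2 and G2 replicates 1 and 2. Its summits of 58.8 and 64.5 times the background on G128 and 82.8 and 96.4 times on G2 lay within 4 bp of each other. The means were 61.6 ± 4.01 and 89.6 ± 9.66 (SD, n = 2 each), a ratio of 1.45. In G2 replicate 2 its summit of 132 intervals, and so its −log10 p of 7.26, equalled that of region 6.

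Region 4 was split differently in each list. It held 3 peaks in G128 replicate 1, 1 in G128 replicate 2 and 2 in each G2 library. The highest summit of the region lay between 174155214 and 174155256 in all of them. That summit was 39.8 and 39.7 times the background on G128 and 53.7 and 62.1 times on G2, a ratio of 1.46 between the means of 39.8 ± 0.113 and 57.9 ± 5.96 (SD, n = 2 each). A second summit near 174155668 was a separate peak in G128 replicate 1, at 30.4 times, and in G2 replicate 1, at 28.2 times. In G2 replicate 2 this stretch was part of a peak of 808 bp, and in G128 replicate 2 no peak reached it.

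Region 5 was the weakest of the 5 regions found in all libraries, with summits of 29.4 and 29.8 times the background on G128 and 44.6 and 36.5 times on G2. The means were 29.6 ± 0.251 and 40.6 ± 5.69 (SD, n = 2 each), a ratio of 1.37. Its width varied most, from 150 bp in G128 replicate 1 to 704 bp in G128 replicate 2 and 552 and 777 bp in the G2 libraries. Its summit lay between 174156213 and 174156278 except in G2 replicate 1, where it lay at 174156610. The deposited signal was lowest where the peak was narrowest, at 46.8, 282, 393 and 522 in the order G128 replicates 1 and 2 and G2 replicates 1 and 2.

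Region 1 had a peak in the G2 lists only. It was 183 bp wide in G2 replicate 1 and 158 bp in G2 replicate 2, with summits of 29.1 and 23.4 times the background. These are weak peaks, at 70.3% and 85.6% of their lists by −log10 p. A region without a peak in the G128 lists may still have been open below the caller's threshold. The lowest summits that entered the 4 lists were 20, 26, 20 and 25 intervals, and the summit of region 1 was 32 intervals in both G2 libraries.

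**Figure D2:**
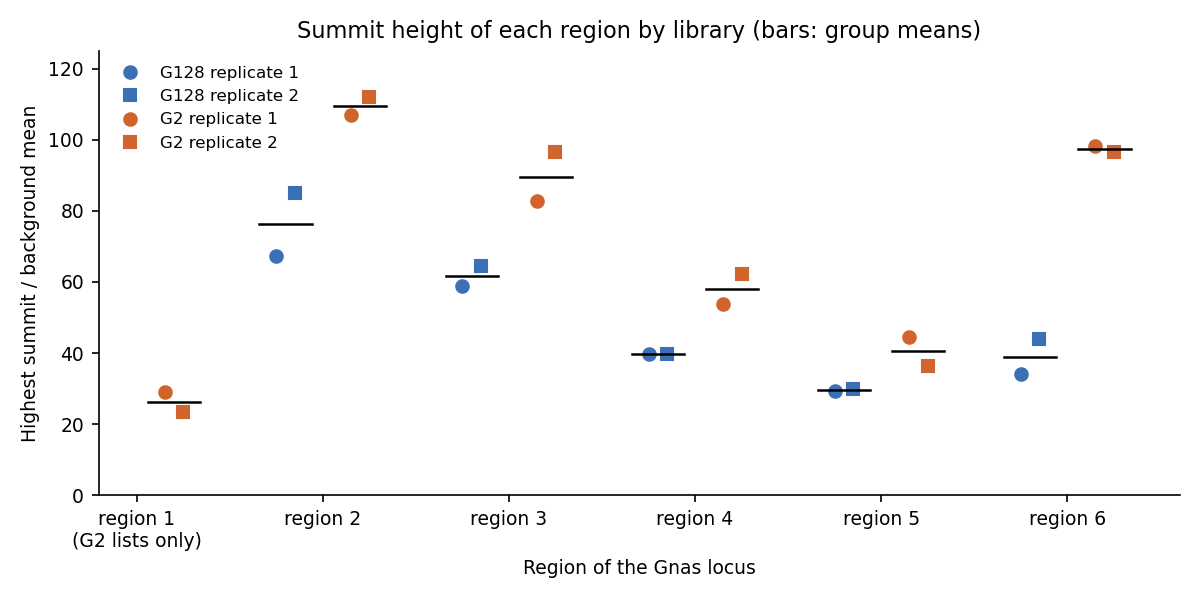
Highest summit of each region over the background mean of its library (y axis, linear from 0), with 1 symbol per library and a black bar at the group mean. Region 6 has a ratio of 2.49 between the group means, and regions 2 to 5 have ratios of 1.37 to 1.46.

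The summits of the 4 other shared regions differed by 0.12 to 0.21 on the log2 scale once the general shift of the G2 libraries was taken away. After centring, G2 minus G128 was 0.20 for region 2 (limma 95% interval −0.11 to 0.52), 0.21 for region 3 (−0.12 to 0.53), 0.21 for region 4 (−0.13 to 0.54) and 0.12 for region 5 (−0.24 to 0.47). Their adjusted p-values from limma, over 27768 regions, were 0.555, 0.561, 0.576 and 0.789, so 0 of 4 were called in either direction at 0.05. The background of this test was also empty, with 0% of all regions called higher and 0% called lower on G2. At an unadjusted p under 0.05, 1547 regions (5.57%) were higher and 2408 (8.67%) lower, and none of the 4 was among them. With a prior variance that followed the mean height, an alternative added after the data were seen, limma called 167 regions (0.601%) higher and 240 (0.864%) lower, again 0 of these 4. Region 6 was chosen on this same contrast, so no call of its own is read from either fit.

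All 4 differences of centred summits were above 0, although region 5 was at −0.04 without G2 replicate 1. These differences depended on the measure of height. By summed signal, centred in the same way, they were −0.14, 0.16, 0.67 and 1.33 for regions 2, 3, 4 and 5, beside 1.31 for region 6. By the mean height, the largest signal over width of any peak in the region, they were 0.06, 0.31, 0.34 and 0.57, beside 1.21 for region 6. None of the 4 was called by limma on either measure, with adjusted p-values from 0.420 to 0.918. For region 5 by mean height, the limma 95% interval was 0.15 to 0.99 (unadjusted p = 0.0187). On that measure 1757 regions were higher at an unadjusted p under 0.05. The other intervals of these regions on both measures included 0. The median of the 4 summit differences was 0.20, against 0.01 over all shared regions, where 52.2% were above 0. In 3 of the 4, regions 2, 3 and 4, both centred values on G2 lay above those on G128, as they did in 23.8% of all shared regions, and region 5 overlapped. The reverse order was found in 21.9%. Without centring, the differences were 0.53, 0.54, 0.54 and 0.45, and 3 of 4 were called higher, but then 21.1% of all regions (5869) were called higher and 0.245% (68) lower. The upper ends of the 4 intervals of centred summit differences, at 0.47 to 0.54 on the log2 scale, leave room for a difference. The 4 regions are therefore not shown to be equal on G128 and G2.

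**Figure D3:**
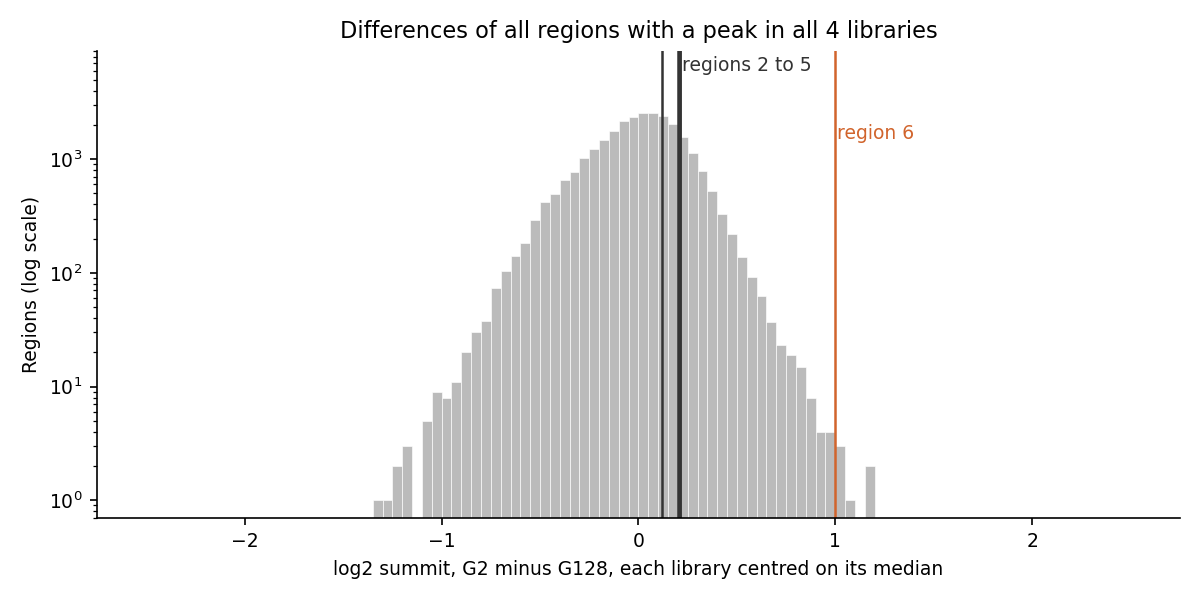
Centred log2 difference of G2 minus G128 (x axis) for the 27768 regions with a peak in all 4 libraries, as a histogram with a log-scaled y axis. The black lines are regions 2 to 5 of the locus, at 0.12 to 0.21, and the orange line is region 6, chosen for its difference, at 1.00.

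The place of region 6 among the regions of the locus differed between the groups, in values that need no scaling between libraries. Region 6 was chosen for standing higher on G2, so its places and ratios are a description, and nothing is read from them. Counted from the highest, region 6 held place 4 of 5 in G128 replicate 1 and place 3 of 5 in G128 replicate 2. It held place 2 of 6 in G2 replicate 1, and place 2, tied with region 3, in G2 replicate 2. Set against region 2, it was 0.507 and 0.517 times as high on G128, and 0.915 and 0.863 times on G2. Set against region 3, it was 0.581 and 0.681 times as high on G128 and 1.19 and 1.00 times on G2. Set against region 5, its nearest neighbour, it was 1.16 and 1.48 times as high on G128 and 2.20 and 2.64 times on G2.

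By summit height, the other shared regions kept their order. Regions 2, 3, 4 and 5 descended in this order in all 4 libraries, but neighbours in this order did not always differ beyond counting error. The counting intervals of regions 4 and 5 overlapped in 3 of 4 libraries, for example with 30.3 to 56.8 and 21.1 to 44.0 in G128 replicate 1, and did not in G2 replicate 2, with 67.9 to 105 and 37.1 to 65.9. Regions 2 and 3 overlapped in all 4 libraries, for example with 55.5 to 89.6 and 47.5 to 79.5 in G128 replicate 1. By deposited signal the order differed, with region 3 above region 2 in G128 replicate 1 (566 against 527) and in both G2 libraries. By signal, region 5 was above region 4 in G128 replicate 2 (282 against 233).

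**Figure D4:**
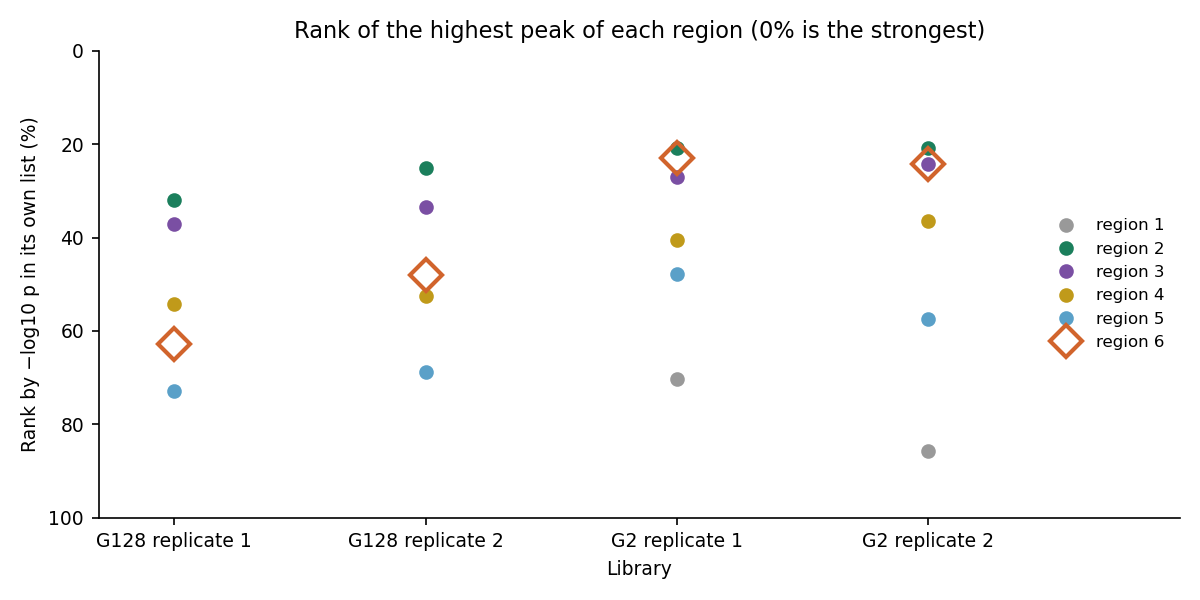
Rank of the highest peak of each region by the deposited −log10 p in its own list, as a percentage of the list (y axis, with the strongest peak at the top), for the 4 libraries. Region 6 is at 62.7% and 48.1% in the G128 lists and at 22.9% and 24.3% in the G2 lists, where its open diamond lies beside regions 2 and 3 and, in G2 replicate 2, around the point of region 3.

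As a whole, with region 6 counted in, the locus held a larger part of the summed signal on G2. Region 6 was chosen for standing higher on G2, so nothing is read from this. Given in ppm, the part per 1000000 of the summed signal of a list, it held 88.7 and 104 ppm on G128, and 137 and 146 ppm on G2. The means were 96.2 ± 10.6 and 142 ± 6.11 (SD, n = 2 each), a ratio of 1.47. Region 6 held 9.53% and 12.3% of the signal of the locus on G128, and 20.8% and 19.2% on G2. Without region 6 the locus held 80.2, 90.9, 109 and 118 ppm, and the ratio was 1.33. This remainder still held region 1, whose peaks are in the G2 lists only, with a signal of 113 and 42.9. For this remainder the two-sided exact permutation test over the 6 assignments gave p = 0.333, the smallest that 2 against 2 libraries allow.

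The number of peaks did not separate the groups, at 7 and 5 on G128 and 7 and 7 on G2 (two-sided exact permutation p = 1.00). Peaks of the locus covered 2607 and 3419 bp on G128, and 3735 and 4128 bp on G2. The mean signal per covered bp was 0.615 and 0.716 on G128, and 1.04 and 1.08 on G2. Sums over peaks called in each library move with how much was called, and the cover of the locus was 169, 181, 184 and 186 ppm of the cover of each list.

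Just outside the bounds the nearest peak lay 1.15 kb before the start, in the list of G2 replicate 1 only, with a summit of 20.9 times the background. The nearest regions with a peak in all 4 libraries lay 37.1 kb before and 50.9 kb after the bounds. The one before, at 174052034 to 174052905, had summits from 36.0 times the background in G128 replicate 1 to 49.0 times in G2 replicate 2. Its centred difference was −0.18. The one after, at 174240942 to 174241794, was stronger, with 105, 140, 166 and 145 times, and had a centred difference of 0.02. Region 6 was chosen for the size of its centred difference, so nothing is read from its exceeding that of these neighbours.

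The regions elsewhere most like region 6 were found by the Euclidean distance over the 4 centred log2 summits. The nearest was 11:32118411–32119079, at a distance of 0.204, with summits of 37.0 and 46.8 times the background on G128 and 89.1 and 97.9 times on G2. The next were 8:73067887–73068547, at 0.285, with 37.9, 51.0, 91.9 and 93.5 times, and 4:119861203–119861908, at 0.287, with 40.8, 46.8, 105 and 97.9 times. Their centred differences were 0.84, 0.74 and 0.88. The likeness was chosen by these values, over 4 libraries, and no gene was assigned to these positions.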

How the data were processed

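ATAC-seq peak lists of 4 libraries were used, 2 on G128 and 2 on G2, with groups and replicate numbers from the titles. Per the submitters' processing notes the build was mm9 and the tools included Genrich 0.5, Bowtie2 2.2.5 and SAMtools 1.7. Their roles and settings, the shift of reads for the transposase and the treatment of duplicates are not given in the sources used here. The deposited lists, 1 per library, give each peak a score, a summit offset, a signal, and its p and q as −log10. The deposited score was 1000 times signal over width, capped at 1000, within 1. Signal and −log10 p belong to their own list and served for ranks and description within it. Signal was also compared between libraries, as a share of its list and, after centring, as an alternative measure of height. Where signal is printed unscaled for several libraries, it is a description only. Coordinates are those of the lists, counted from 1.

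Summit pileups and background means were recovered from the steps of the deposited −log10 p-values, whose normal quantiles rose linearly with the logarithm of consecutive whole numbers over the lowest 100 (root mean square error at most 1.58e-07, next best start at least 0.00164). All pileups lay within 0.00179 of a whole number. This assumes a log-normal background. Both the recovery and the limma fit were run on simulated data. The data simulated for the recovery used that same background, so they could not check this assumption. Peaks sharing at least 1 bp were merged, and a region's summit was the highest in it. Centred log2 summits were fitted over all 27768 shared regions with limma 3.58.1 in R 4.3.3, default settings, Benjamini-Hochberg adjusted. Single values were tested by exact permutation. Replicates may be technical, so p-values measure only the spread between these libraries. Python 3.11.15, numpy 2.4.6, scipy 1.17.1 and pandas 2.3.3 were used. Promoter sequences are from RefSeq, GRCm38.p6, where Gnas matched 4 rows.

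All regions of the locus were named, beside the 3 shared regions elsewhere with the smallest distance to region 6. The members and these rules were chosen with earlier results of these data known. Alternatives concerned scaling, the measure of height, the merging of peaks, thresholds, bounds, leaving out libraries in turn, and a replicate block.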

Additional observations from a re-analysis of the deposited data

How the results depend on the processing

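The centred difference of region 6 was 1.00 on the log2 scale. It stayed within the spread between replicates with quantile normalization, cyclic loess and 500 bp windows around summits. The replicate block also gave 1.00, but it cannot change this difference where each group holds both replicate numbers, so it is no check. It was 1.33 without median scaling, which leaves in the general shift of 0.33, 1.31 from the summed signal and 1.21 from the mean height of the peak. Leaving out each library gave 0.92 to 1.08. Region 6 was chosen for this difference in the same libraries, so the other settings are no independent check of it either. Of the 4 other shared regions, 3 were called higher without median scaling, and 0 in either direction under the other 12 settings. Under one of these, which kept regions whose mean summit reached 40 times the background, only 3 of the 4 could be tested. By summed signal the difference of region 2 was −0.14 and that of region 5 was 1.33, and without G2 replicate 1 the summit difference of region 5 was −0.04.

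Over all shared regions, where 0 were called, the replicate block called 274 higher and 656 lower, and the regions reaching a mean summit of 40 gave 32 and 32 calls, with fewer regions tested. Leaving out G128 replicate 2 gave 3 and 15, and leaving out G2 replicate 2 gave 1 and 6. The cause was not tested. Same-numbered libraries did not deviate together (correlation 0.003 across regions), and the labels give no shared source, so the number was not treated as a pairing.

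The ratio of G2 to G128 in peaks of the locus was 1.17, and 1.00 to 1.40 leaving out each library. Counting only peaks with a −log10 p above the median of their list, it was 1.80. Region 6, chosen on this value, passed the cut in both G2 lists but not in G128 replicate 1, where it ranked at 62.7%. The ratio of the signal share was 1.47, and 1.33 to 1.76 under all alternatives. Only the 1.33 left out region 6, and the 1.76 came from that same cut. Nothing is read from the ratios that include region 6. By signal in place of −log10 p, region 6 ranked at 26.9% and 28.0% in the G2 lists, and with equal numbers of peaks at 29.7% and 31.1%. With 2 libraries a group, depth limits each summit to its counting interval. The variance trend, the mean height as a measure for calls and the share without region 6 were added after the data were seen.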
